A study of Mus musculus with 3 samples.

Results

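The IL-17 program genes examined here are Il17a, Il17f, Il17re, Il23r, Il1r1, Blk, Sdc1, Tmem176a and Tmem176b. They were matched by gene symbol, and these 9 genes were measured among 30406 gene identifiers shared by 3 droplet single-cell RNA libraries of thymic cells, each sorted as TCRβ+, CD1d-tetramer+, CD24- and NK1.1- after bead removal of CD8+ cells. The C57BL/6 library came from mice 7 weeks old without bone marrow transplantation (BMT). The BM only library (non-GvHD) and the BM + Spl library (GvHD) came from recipients 16 weeks old, 9 weeks after BMT: lethally irradiated F1 mice (C57BL/6 x BALB/c) that received T cell-depleted C57BL/6 bone marrow, without splenic cells (BM only) or together with C57BL/6 splenic cells, which give graft-versus-host disease (BM + Spl). Each library pooled mice and is 1 sample of its group, so no difference between groups was tested and no replicate spread is known. Every interval given is a 95% exact interval that covers counting error only, and it is too narrow where many transcripts came from few cells. Cells of recipient origin were not separated from donor cells.

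Invariant NKT (iNKT) cells are T cells with a semi-invariant receptor for lipids shown by CD1d, and in the thymus they split into NKT1, NKT2 and NKT17 cells. NKT17 cells carry the type 17 program, as Th17 cells and IL-17-producing γδ T cells do: they make the cytokines IL-17A and IL-17F, and IL-23 and IL-1, read through IL-23R and IL-1R1, sustain that output. Among the remaining members, Il17re encodes a receptor chain for IL-17C, Blk a Src-family kinase also used by B cells, Sdc1 the proteoglycan syndecan-1 (CD138), which marks NKT17 cells and plasma cells, and Tmem176a and Tmem176b a pair of cation channel proteins of intracellular membranes found in type 17 lymphocytes and myeloid cells.

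Several members sit together in the genome. In GENCODE vM21 (GRCm38, the mm10 build of the deposited files), Il17a lies on chromosome 1 from 20730905 to 20734496 on the plus strand and Il17f from 20777146 to 20790617 on the minus strand, with 42649 bases and no other coding gene between them. Tmem176a (chromosome 6, 48840919 to 48847071, plus strand) and Tmem176b (48833818 to 48841496, minus strand) overlap at their 5′ ends on opposite strands, so a read over the shared bases can be assigned only by its strand, and the strand setting of the counting was not given in the sources used here. Il17re (chromosome 6, 113458484 to 113470758) lies 668 bases from Il17rc, Il23r is on chromosome 6 (67422932 to 67491855), Il1r1 on chromosome 1 (40225080 to 40317257), Blk on chromosome 14 (63372836 to 63417037) and Sdc1 on chromosome 12 (8771323 to 8793715).

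Promoter windows of 8 members were matched in the RefSeq table (GRCm38.p6), each reaching from 250 bases before to 50 after a transcript start. They were searched on both strands for AGGTCA, a core sequence that nuclear receptors bind. The core was found in the windows of Il17a, Il17f and Il23r and in none of the windows of the other 5 matched genes, and of all 27025 genes with windows, 18.1% hold it in at least 1 window. A match is a description of letters and not a shown binding site. The 3 windows with a match are shown because they are the ones among the members that hold the core, with the core or its reverse complement in capitals:
Il17a (chr1:20730655-20730954, plus strand): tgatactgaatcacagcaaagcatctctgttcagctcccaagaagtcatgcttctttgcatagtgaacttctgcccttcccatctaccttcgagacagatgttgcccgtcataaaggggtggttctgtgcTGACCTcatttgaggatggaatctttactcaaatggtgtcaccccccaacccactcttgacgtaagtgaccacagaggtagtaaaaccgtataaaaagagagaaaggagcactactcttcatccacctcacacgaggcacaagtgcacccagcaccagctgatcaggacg
Il17f (chr1:20784221-20784520, minus strand): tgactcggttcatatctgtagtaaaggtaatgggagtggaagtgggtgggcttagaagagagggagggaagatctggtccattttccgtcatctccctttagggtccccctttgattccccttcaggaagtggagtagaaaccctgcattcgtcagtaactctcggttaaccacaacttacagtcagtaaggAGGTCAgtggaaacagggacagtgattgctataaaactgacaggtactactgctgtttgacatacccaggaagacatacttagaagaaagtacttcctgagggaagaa
Il23r (chr6:67491806-67492105, minus strand): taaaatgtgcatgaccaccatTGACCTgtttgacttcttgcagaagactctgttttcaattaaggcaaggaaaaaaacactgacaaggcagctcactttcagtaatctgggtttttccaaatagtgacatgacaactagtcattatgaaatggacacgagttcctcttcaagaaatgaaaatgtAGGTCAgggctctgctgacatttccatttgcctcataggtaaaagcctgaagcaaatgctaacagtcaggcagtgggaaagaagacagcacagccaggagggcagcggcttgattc

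The Tmem176 pair is shown for its overlap: a window of Tmem176a and a window of Tmem176b, of several for each gene, are read from opposite strands of partly the same bases, and neither holds the core, so no base is in capitals:
Tmem176a (chr6:48841233-48841532, plus strand): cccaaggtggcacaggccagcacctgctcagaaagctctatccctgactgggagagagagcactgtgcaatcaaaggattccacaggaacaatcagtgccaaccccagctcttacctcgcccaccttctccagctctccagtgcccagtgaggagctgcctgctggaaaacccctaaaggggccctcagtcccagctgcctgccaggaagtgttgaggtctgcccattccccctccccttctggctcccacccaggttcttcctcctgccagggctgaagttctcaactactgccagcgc
Tmem176b (chr6:48841325-48841624, minus strand): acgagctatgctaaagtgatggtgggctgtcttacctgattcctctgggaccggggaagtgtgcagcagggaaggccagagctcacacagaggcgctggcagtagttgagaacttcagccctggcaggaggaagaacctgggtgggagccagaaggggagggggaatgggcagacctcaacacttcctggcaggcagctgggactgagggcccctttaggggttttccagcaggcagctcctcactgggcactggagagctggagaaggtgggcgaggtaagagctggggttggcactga

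Cells with more than 200 and fewer than 6000 genes and less than 10% mitochondrial transcripts were used: 4434 of 4613 barcodes in C57BL/6, 5970 of 5986 in BM only and 5557 of 5573 in BM + Spl. Their median number of transcripts (unique molecular identifiers, UMIs) was 12086.5, 4740 and 6495. The C57BL/6 matrix was counted with another Cell Ranger version than the transplant matrices and held 1072 UMIs of Trbv segments, against 52400 and 72439. The paper's supplement names a 3' and a 5' library kit without saying which library used which, so the kit may also differ. Differences between C57BL/6 and the transplant libraries therefore cannot be told apart from counting, age, transplantation or a possible change of kit. The C57BL/6 values stand beside the others without a comparison. BM only and BM + Spl shared 43 cell barcodes. The sort was not pure after BMT: clusters led by markers of plasmacytoid dendritic cells numbered 148 cells in BM only and 387 in BM + Spl, of macrophages or dendritic cells 88 and 53, of B cells 79 and 61, and of plasma cells 46 and 17.

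The cytokine genes were rare in each library. Il17a had 30 UMIs in C57BL/6, 417 in BM only and 291 in BM + Spl, that is 0.510, 12 and 6.75 UMIs per 1000000 UMIs of the library (CPM). Il17f had 4, 66 and 68 UMIs, or 0.0680, 1.90 and 1.58 CPM. Il17a was thus lower in BM + Spl than in BM only by 0.83 on the log2 scale (interval -1.05 to -0.61), whereas the log2 ratio of Il17f was -0.27 with an interval from -0.78 to 0.24 that included no change. Few cells made these counts: 105 cells in BM only and 75 in BM + Spl held an Il17a UMI, and the 27 and 20 cells with 5 or more UMIs held 67.1% and 62.2% of all Il17a UMIs. One cell of BM only held 28 Il17a UMIs.

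Among the receptor genes of the program, Il23r and Il1r1 had the widest gaps of the 9 members between the transplant libraries. Il23r reached 4.35 CPM in C57BL/6, 13.7 (12.5 to 15) in BM only and 2.69 (2.22 to 3.23) in BM + Spl, a log2 ratio of -2.35 (-2.65 to -2.05) between the last 2, or 5.08-fold lower. Il1r1 had 7.77, 14.8 (13.6 to 16.2) and 3.22 (2.71 to 3.81) CPM, a log2 ratio of -2.20 (-2.48 to -1.93). Il17re had 10.1, 9.6 (8.60 to 10.7) and 2.99 (2.50 to 3.55) CPM, with a log2 ratio of -1.68 (-1.99 to -1.38). Each of these 3 receptor genes was lower in BM + Spl by at least 1.5-fold, where 8.28% of the 12802 genes tested were.

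The kinase gene Blk had 16.6 CPM in C57BL/6, 25.9 (24.2 to 27.6) in BM only and 7.44 (6.65 to 8.30) in BM + Spl, a log2 ratio of -1.80 (-1.99 to -1.61). Sdc1 had 9.34, 5.78 (5.0 to 6.63) and 1.46 (1.12 to 1.87) CPM, a log2 ratio of -1.98 (-2.42 to -1.57). By flow cytometry, the paper reported no difference between the transplant groups in the share of CD138+ NKT17 cells. It also reported no significant difference in NKT17 cells defined by transcription factors. Those are protein measures on iNKT cells, while the Sdc1 level here is RNA over all sorted cells of 1 library per group. Tmem176a and Tmem176b, which take up most member UMIs after BMT, differed less. Tmem176a had 20.9, 79.9 (77 to 82.9) and 51.8 (49.7 to 54.0) CPM with a log2 ratio of -0.63 (-0.71 to -0.54). Tmem176b had 14.3, 86.2 (83.2 to 89.4) and 62.0 (59.6 to 64.4) CPM with a log2 ratio of -0.48 (-0.55 to -0.40).

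**Figure D1:**
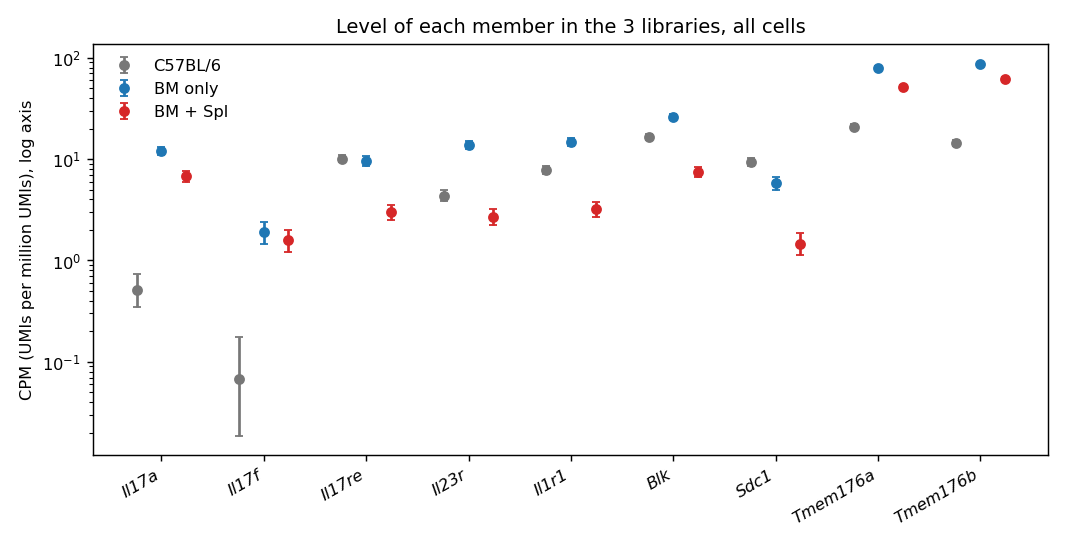
Level of each of the 9 members (CPM, log axis) in all cells of C57BL/6 (grey), BM only (blue) and BM + Spl (red), 1 library each; bars are 95% exact Poisson intervals. BM + Spl lies below BM only for each member, and for Il17f the intervals overlap. The share of all genes with intervals apart was not counted. C57BL/6 is shown without a comparison.

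Taking 1.5-fold as the limit, 7 of the 9 members were lower in BM + Spl than in BM only and 0 were higher; Il17f and Tmem176b did not reach it. Among the 12802 genes with at least 50 UMIs in the 2 libraries together, 8.28% were lower and 6.83% higher by that fold. The median log2 ratio was -1.68 over the members and 0.004 over all those genes. Summed over the 9 members, the level was 84 CPM in C57BL/6, 249.8 in BM only and 139.9 in BM + Spl, and the log2 ratio of the last 2 was -0.84 (-0.88 to -0.79). Tmem176a fell under the 1.5-fold limit, at -0.58, when the clusters of dendritic cells, macrophages, B cells and plasma cells were left out. Without the cluster led by Sostdc1, Penk and Nrn1, described with the cell classes, Tmem176b passed it at -0.69. The share of all genes past the limit was not computed in these smaller sets of cells.

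A wider list of 25 type 17 partner genes, chosen with earlier results of these data known, held genes with small and with large ratios. Of its 23 genes with enough UMIs, 6 were lower in BM + Spl by at least 1.5-fold (among them Il22, Il7r, Serpinb1a, Aqp3 and Pxdc1) and 1 was higher (Il21); the median log2 ratio was -0.30. Il22, the gene of another type 17 cytokine, went from 8.53 CPM in BM only to 1.48 in BM + Spl, a log2 ratio of -2.52 (-2.94 to -2.13). Rora, a nuclear receptor gene, had 82.1 and 81.4 CPM with a log2 ratio of -0.01 (-0.08 to 0.06). In bulk sums like these, fewer cells of a type and fewer transcripts per cell cannot be told apart, so the members were next read cell by cell.

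To compare cells of unequal depth, each cell was thinned to 2700 UMIs, which left out 15, 959 and 568 shallower cells. Of the remaining cells, 2.26% (1.84 to 2.75; 100 of 4419) held at least 3 of the 9 members in C57BL/6, 5.67% (5.04 to 6.34; 284 of 5011) in BM only and 2.12% (1.74 to 2.56; 106 of 4989) in BM + Spl. Without thinning the shares were 6.20%, 6.65% and 3.13%. The gap between the transplant libraries depended on how many members were asked for. Cells with at least 1 member made up 15.9% of BM only and 14.7% of BM + Spl, whereas those with at least 4 made up 3.31% and 0.702%.

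**Figure D2:**
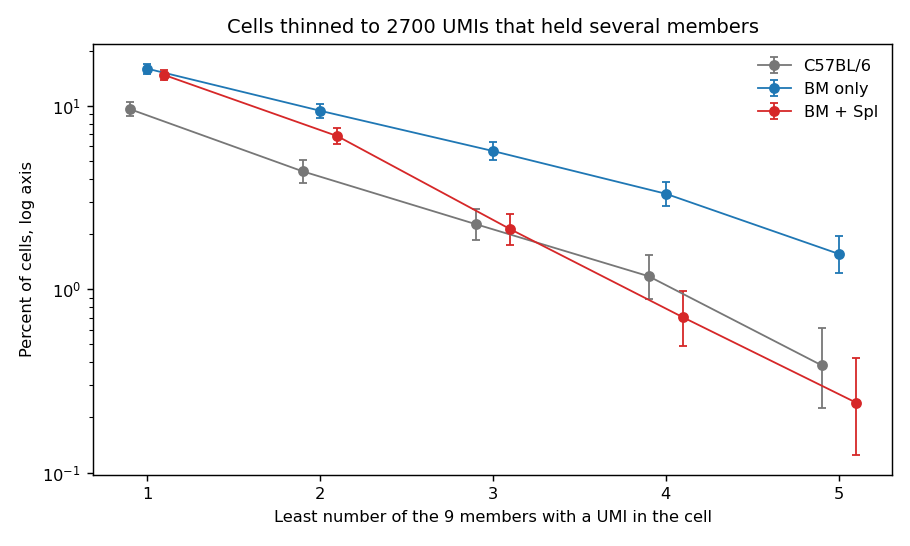
Percent of cells (log axis), each thinned to 2700 UMIs, that held at least 1 to 5 of the 9 members in C57BL/6 (grey), BM only (blue) and BM + Spl (red); bars are 95% Clopper-Pearson intervals. BM only and BM + Spl lie close together at 1 member and apart at 4, where they hold 3.31% and 0.702% of cells.

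Detection of one member went with detection of others in the same cell. After thinning, Tmem176b was found in 72.9% of the 516 BM only cells with Tmem176a and in 3.83% of the cells without it; in BM + Spl the shares were 68.3% and 4.94%. Il23r was found in 38.5% of the BM only cells with Il1r1 against 1.81% of those without, and in 25.0% against 0.506% in BM + Spl. Il17f was found in 13.2% of the 68 BM only cells with Il17a and 0.243% of the rest, and in 17.6% of the 51 BM + Spl cells with Il17a and 0.122% of the rest. Blk was found in 39.7% (28.0 to 52.3) of BM only cells with Il17a and in 11.8% (4.44 to 23.9) of BM + Spl cells with Il17a. These shares describe cells of 1 library each, and neither their links nor the gaps between libraries were tested.

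To place the members in cell classes without letting them form the classes, cells were clustered on variable genes that excluded the 9 members and the T cell receptor segments. One cluster was led by NKT17 markers (among them Serpinb1a and Pxdc1) and is called NKT17-like; its cells numbered 275 in C57BL/6, 499 in BM only and 237 in BM + Spl. Although no member had a part in making it, this cluster held 60.5% of all member UMIs in C57BL/6 and 65.1% in BM only, but 33.5% in BM + Spl. Its summed member level was 935 CPM in C57BL/6, 2452 (2389 to 2517) in BM only and 1920 (1838 to 2006) in BM + Spl, while the cells outside it had 35.1, 93.3 and 95.4 CPM.

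**Figure D3:**
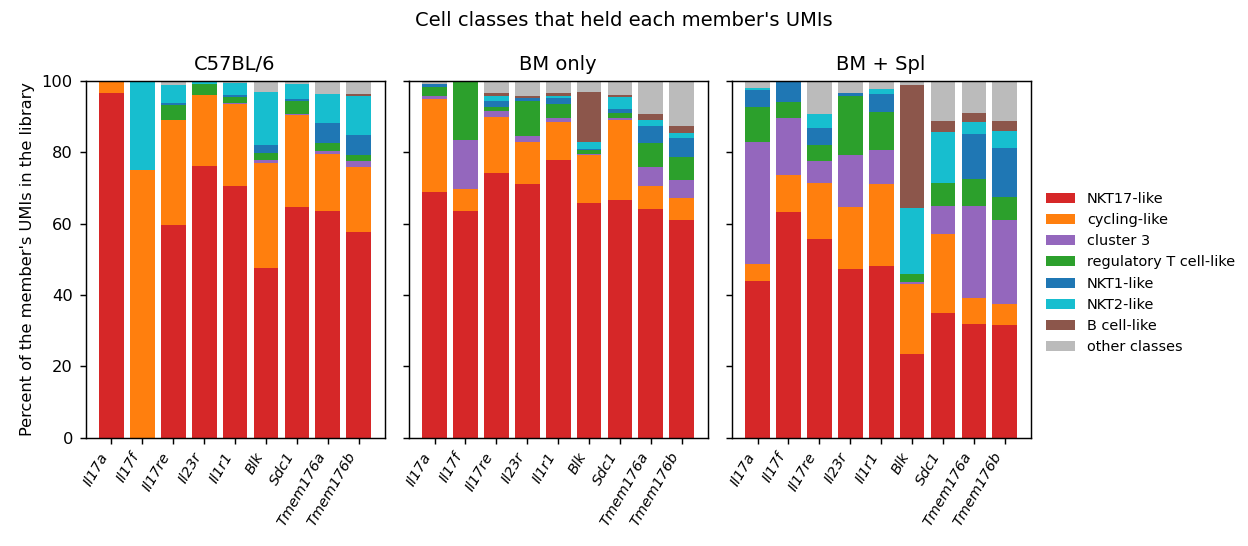
Share of each member's UMIs (percent, stacked to 100) by cell class in the 3 libraries; "cluster 3" is the unnamed cluster led by Sostdc1, Penk and Nrn1. NKT17-like cells (red) held 44.0% of the Il17a UMIs in BM + Spl against 68.8% in BM only, and the unnamed cluster (purple) 34.0% against 0.959%.

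Within NKT17-like cells the members did not move together. Between BM + Spl and BM only, 5 of 9 were lower by at least 1.5-fold (Il17re, Il23r, Il1r1, Blk and Sdc1) and 1 was higher (Il17f), where 8.69% and 5.54% of the 6696 genes tested were. Blk went from 256 CPM in BM only to 71.3 in BM + Spl, a log2 ratio of -1.84 (-2.21 to -1.50). Il23r went from 147 to 52.3 CPM (log2 ratio -1.49, -1.93 to -1.08), Il1r1 from 174 to 63.7 CPM (-1.45, -1.84 to -1.07) and Sdc1 from 58.1 to 20.9 CPM (-1.47, -2.20 to -0.82). Il17re, at 107 and 68.5 CPM, had a log2 ratio of -0.65 (-1.05 to -0.27).

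Il17a itself was level in these cells: 124 CPM (110 to 140) in BM only and 122 (102 to 145) in BM + Spl, a log2 ratio of -0.03 (-0.34 to 0.27). The Tmem176 pair was near level too, with log2 ratios of -0.19 (-0.32 to -0.07) for Tmem176a and 0.02 (-0.10 to 0.14) for Tmem176b. Il17f had 18.2 CPM in BM only and 40.9 in BM + Spl (log2 ratio 1.17, 0.52 to 1.82), but its 43 UMIs in BM + Spl came from 11 cells and 1 cell held 16 of them. The share of thinned NKT17-like cells with an Il17f UMI was 3.72% in BM only and 3.99% in BM + Spl.

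Counted by cells, the gaps again lay in the receptor genes, Blk and Sdc1. After thinning, Blk was found in 31.3% of the NKT17-like cells of BM only and 7.09% of those of BM + Spl, Il23r in 25.2% and 9.2%, Il1r1 in 29.7% and 12.7%, Sdc1 in 11.4% and 3.27%, and Il17re in 23.7% and 14.6%. Il17a was found in 12.4% and 11.8%, Tmem176a in 72.4% and 61.5%, and Tmem176b in 74.2% and 67.6%. In NKT2-like cells, which should lack the program, the thinned shares stood between 0% and 2.18% for each member in both libraries. The median depth before thinning was 4029 and 3958 UMIs in NKT17-like cells and 8115 and 9143 in NKT2-like cells. The thinned NKT17-like shares lay above those of NKT2-like cells. Some other classes held more of the Tmem176 pair and of Il17a than NKT2-like cells, as given below.

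Some markers of other cells were read in the NKT17-like cells of both transplant libraries and others were at 0. All 6 regulatory T cell markers had UMIs, with 1071 CPM in BM only and 1130 in BM + Spl, against 1078 and 1223 in all cells. NKT2 markers summed to 854 and 627 CPM, against 1036 and 1365 in all cells, and NKT1 markers to 531 and 377, against 2918 and 1261. Of 6 B cell markers 3 had UMIs in each library (summed level 47.7 CPM in BM only and 30.4 in BM + Spl), and Ms4a1 and Ebf1 were among those at 0. Of 7 markers of macrophages or dendritic cells, 2 had UMIs in BM only and 3 in BM + Spl (245 and 276 CPM), and Csf1r, C1qa, C1qb and Itgax had 0 in both. Of 5 markers of plasmacytoid dendritic cells, 3 had UMIs in BM only and 5 in BM + Spl (120 and 252 CPM); the part of these transcripts in the member levels was not tested. Of the γδ T cell genes, Trdc had 11 UMIs in BM only and 5 in BM + Spl, or 4.77 and 4.75 CPM, and the 6 genes of that list summed to 253 and 184 CPM, most of it from the γ constant genes, which αβ T cells can also transcribe.

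Outside the NKT17-like cells, 5 of the 8 members with enough UMIs were lower in BM + Spl by at least 1.5-fold (Il17re, Il23r, Il1r1, Blk and Sdc1), against 7.93% of all genes tested, and 0 were higher, against 6.68%. Il17a had 4.0 CPM there in BM only and 3.87 in BM + Spl, a log2 ratio of -0.05 (-0.39 to 0.30). Its level was thus near even within the NKT17-like cells and in the sum of cells outside them. That sum includes the unnamed cluster described next, where Il17a was higher in BM + Spl. NKT17-like cells made up 8.36% (7.67 to 9.09) of all kept cells of BM only and 4.26% (3.75 to 4.83) of those of BM + Spl. This RNA class also holds cells without an iNKT segment. Its size is thus not the share of NKT17 cells among iNKT cells, for which the paper reported no significant difference by flow cytometry. The part of these class sizes in the all-cell difference of Il17a was not tested. Besides the NKT17-like cells, which held 68.8% of the Il17a UMIs in BM only and 44.0% in BM + Spl, Il17a was read in few cells: in BM only, 14 cycling-like cells held 26.1% of its UMIs, and in BM + Spl, 24 cells of an unnamed cluster led by Sostdc1, Penk and Nrn1 held 34.0%. In that cluster the Il17a level was 2.98 CPM (0.812 to 7.63; 4 UMIs in 281 cells) in BM only and 22.1 CPM (17.9 to 26.9; 99 UMIs in 814 cells) in BM + Spl, while Blk had 2.23 and 0.446 CPM. Of the cells with Il17a, 17.1% in BM only and 45.3% in BM + Spl held no UMI of Il17re, Il23r, Il1r1, Blk or Sdc1, whereas 82.9% and 82.7% held Tmem176a. Without this cluster the log2 ratio of Il17a between the libraries was -1.31 rather than -0.83.

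Blk and Sdc1 were also read in B-lineage cells. B cell-like cells, 79 in BM only and 61 in BM + Spl, had 231 (193 to 275) and 207 (170 to 250) CPM of Blk, and they held 14.1% and 34.3% of all Blk UMIs. With the clusters of dendritic cells, macrophages, B cells and plasma cells left out, the log2 ratio of Blk was -2.11 rather than -1.80. Sdc1 had 50.3 CPM (18.5 to 110) in the 46 plasma cell-like cells of BM only, from 6 UMIs.

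Tmem176a and Tmem176b were read in many classes. Macrophage or dendritic cell-like cells had 133 and 230 CPM of them in BM only and 126 and 217 in BM + Spl. NKT1-like cells had 15.2 and 18.1 CPM in BM only and 99.6 and 131 in BM + Spl, and the cluster led by Sostdc1, Penk and Nrn1 had 108 and 117 against 129 and 140. NKT1-like cells of BM only carried an iNKT Trbv segment in 94.7% of called cells and those of BM + Spl in 31.2%; the part of that shift in the Tmem176 levels was not tested. NKT2-like cells stayed low, with 7.03 and 6.88 CPM in BM only and 6.71 and 11.2 in BM + Spl.

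The study's iNKT cells use a limited set of receptor β segments, so each cell after BMT was called by the Trbv segment with at least 80% of its Trbv UMIs. The segments taken as iNKT segments were Trbv29, Trbv1 and the 3 genes of the Trbv13 group, with Trbv12-2 counted together with Trbv13-2. Other T cells use these segments as well, so an iNKT segment does not prove an iNKT cell. BM only held 3665 cells with an iNKT segment and 951 with another, BM + Spl 2586 and 1673; 1354 and 1298 had no call. NKT17-like cells held fewer iNKT segments than all cells: 59.1% (54.1 to 63.9) of called cells in BM only, against 79.4% (78.2 to 80.6) of all called cells, and 45.5% (38.5 to 52.7) in BM + Spl, against 60.7% (59.2 to 62.2). The leading segment among them was Trbv13-2 in BM only (22.8%) and Trbv13-1 in BM + Spl (21.5%).

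In cells with an iNKT segment, 8 of the 8 members with enough UMIs were lower in BM + Spl than in BM only by at least 1.5-fold, against 9.86% of all genes tested in those cells; 0 were higher, against 7.17%. The summed level went from 199 to 84.3 CPM, a log2 ratio of -1.24 (-1.32 to -1.16). In cells with another segment 5 of 8 were lower (Il17f, Il17re, Il23r, Il1r1 and Blk), against 5.32% of all genes, and 0 were higher, against 4.59%. Their sum went from 378 to 255 CPM, a log2 ratio of -0.57 (-0.65 to -0.48). In cells without a call, 8 of 8 were lower, against 5.98% of all genes, and 0 were higher, against 5.82%, with a log2 ratio of the sum of -1.03 (-1.12 to -0.94). By UMI level, the classes differed most for Il17a. In iNKT-segment cells it had 12.3 CPM in BM only and 4.83 in BM + Spl (log2 ratio -1.35, -1.68 to -1.03). In cells with another segment it had 12.8 and 13.3 CPM (0.06, -0.39 to 0.51). Few iNKT-segment cells made these counts: the 10 with most held 153 of 273 Il17a UMIs in BM only and 76 of 112 in BM + Spl. The shares of iNKT-segment cells with an Il17a UMI were 1.56% (1.18 to 2.01) and 1.199% (0.816 to 1.697), and these intervals overlapped. After thinning the Il17a shares were 1.21% and 0.794%. The median depth of iNKT-segment cells was 4898 UMIs in BM only and 8176 in BM + Spl. Before thinning, their shares with Tmem176a (9.88% and 8.51%) and Tmem176b (10.2% and 9.78%) also had overlapping intervals. After thinning these were 7.63% and 5.28% for Tmem176a and 8.04% and 6.00% for Tmem176b.

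**Figure D4:**
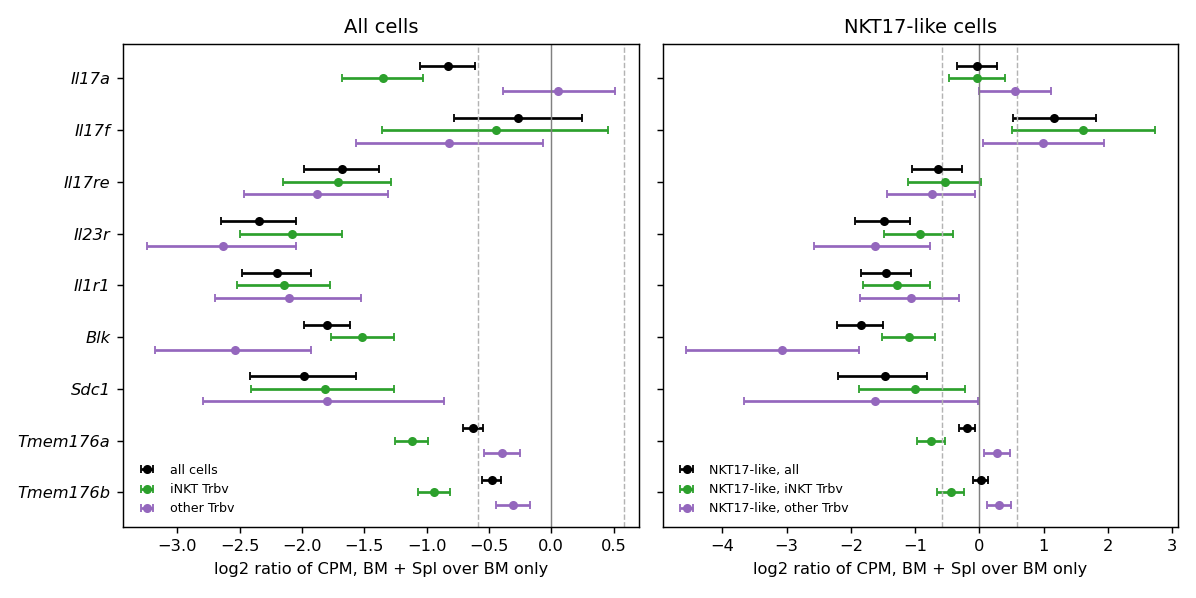
log2 ratio of CPM, BM + Spl over BM only, for the 9 members in all cells (left) and in NKT17-like cells (right); black, all; green, cells with an iNKT Trbv segment; purple, cells with another segment. Points are ratios of 1 library to 1 library, bars are 95% exact conditional intervals and dashed lines mark 1.5-fold. In NKT17-like cells Il23r, Il1r1 and Blk lie left of 0 in each class, and Sdc1 lies left of 0 in black and green. In purple, Sdc1 had too few UMIs for a fold to be read. Tmem176a and Tmem176b lie left of 0 in green and right of 0 in purple.

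Within each transplant library, cells with another segment had a higher summed member level than cells with an iNKT segment. The Tmem176 pair made up most of each sum. Tmem176a and Tmem176b had 136 and 147 CPM against 62.0 and 61.9 in BM only. In BM + Spl they had 104 and 119 CPM against 28.5 and 32.3. In BM only the intervals of Il17a, Il1r1, Blk and Sdc1 overlapped between the segments, and in BM + Spl those of Il17re, Il23r, Il1r1 and Sdc1. The summed level was 378 against 199 CPM in BM only, a log2 ratio of 0.92 (0.84 to 1.0), and 255 against 84.3 CPM in BM + Spl, a log2 ratio of 1.60 (1.51 to 1.69). Split by Trav segment instead, with only 55 and 21 cells called as Trav11, the log2 ratios were 4.74 (3.39 to 6.62) and 1.99 (1.07 to 3.12). The paper counted far more Trav11 cells in each library by receptor sequencing, so this call missed most of them. The Trav split therefore cannot serve as a check on the Trbv split. Higher by at least 1.5-fold were 5 of 9 members in BM only (Il17f, Il17re, Il23r, Tmem176a and Tmem176b), where 12.6% of all genes tested were (0 were lower, against 7.52%), and 5 in BM + Spl (Il17a, Il17f, Il17re, Tmem176a and Tmem176b), where 16.5% were; Blk was the only one of the 9 lower by that fold, in BM + Spl, with a log2 ratio of -1.31 (-1.91 to -0.76), where 8.03% of all genes were. At least 3 members were found in 5.03% of iNKT-segment cells and 8.56% of the others in BM only, and in 1.61% and 3.29% in BM + Spl.

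Over all cells of BM only, Il23r had 20.5 CPM in cells with another segment against 11.7 in cells with an iNKT segment. Il17a, Il1r1, Blk and Sdc1 had overlapping intervals there. Restricted to NKT17-like cells of BM only, the order turned for Il23r. In BM only, cells with another segment had lower Il17a, Il23r, Il1r1, Blk and Sdc1 than cells with an iNKT segment, 5 of the 8 with enough UMIs, against 6.11% of all genes tested, and 0 were higher, against 6.63%. Blk stood at 107 against 293 CPM there, a log2 ratio of -1.45 (-1.84 to -1.07). In BM + Spl, Il23r, Il1r1 and Blk were lower, 3 of 7 against 5.21% of all genes, and Tmem176a and Tmem176b were higher, 2 of 7 against 5.18%. Blk there had 12.8 CPM (6 UMIs) in cells with another segment and 137 CPM (59 UMIs) in cells with an iNKT segment, a log2 ratio of -3.42 (-4.93 to -2.22).

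Between the libraries, NKT17-like cells with an iNKT segment had 5 of 8 members lower in BM + Spl (Il23r, Il1r1, Blk, Sdc1 and Tmem176a), against 9.42% of all genes tested, and 0 higher, against 6.80%. NKT17-like cells with another segment had 4 of 7 lower (Il17re, Il23r, Il1r1 and Blk), against 7.74%, and 0 higher, against 5.83%. The summed log2 ratio was -0.65 (-0.77 to -0.53) in the former and 0.09 (-0.03 to 0.21) in the latter. Tmem176a and Tmem176b had log2 ratios of -0.75 and -0.45 in the former. In the latter they had 0.28 and 0.31, opposite in sign to the 4 lower members.

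Across the 4 groups of NKT17-like cells, Il23r, Il1r1 and Blk were highest in iNKT-segment cells of BM only and lowest in other-segment cells of BM + Spl. Il23r had 160, 91.7, 83.8 and 29.8 CPM in iNKT-segment and other cells of BM only and then of BM + Spl, and the middle values did not differ beyond their intervals. Il1r1 had 208, 93.3, 86.1 and 44.8 CPM in the same order. Il17re had 114, 99.5, 79.1 and 59.7 CPM, and between segments within a library its intervals overlapped. Il17a had 143, 84, 140 and 124 CPM. Tmem176b had 787, 757, 577 and 938 CPM and was thus highest where Blk, Il23r and Il1r1 were lowest.

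**Figure D5:**
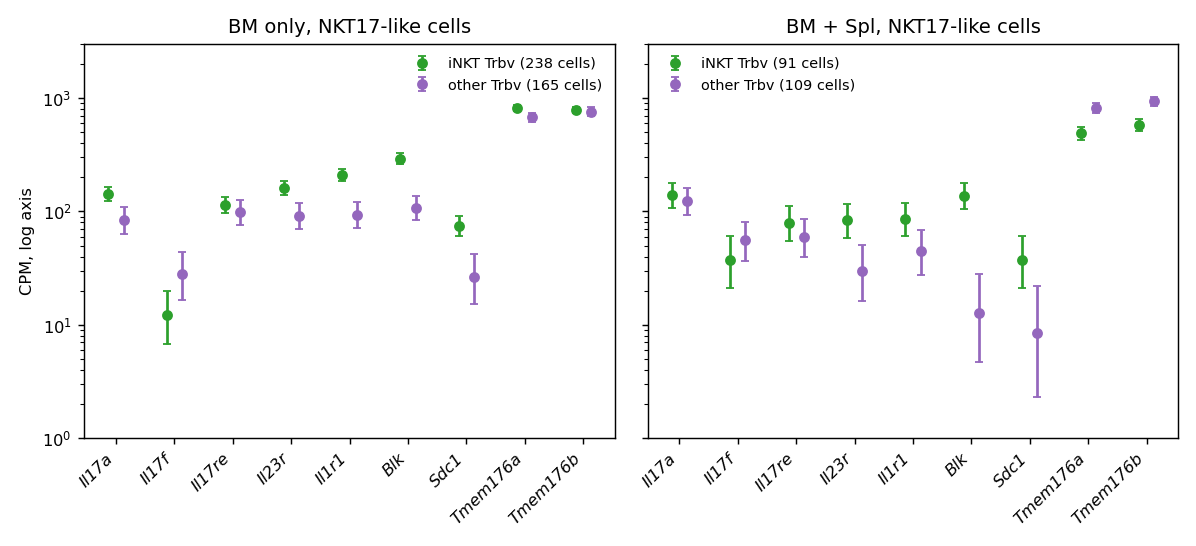
Level of the 9 members (CPM, log axis) in NKT17-like cells of BM only (left) and BM + Spl (right), for cells with an iNKT Trbv segment (green) and with another segment (purple); bars are 95% exact Poisson intervals. Blk, Il23r and Il1r1 are lower in purple in both libraries, and Sdc1 is lower in purple in BM only. In BM + Spl, Sdc1 had too few UMIs for a fold to be read. Tmem176a and Tmem176b are higher in purple in BM + Spl, at 821 and 938 CPM against 489 and 577.

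Other genes were ranked by their likeness to the members, as the lowest over the 3 libraries of the log2 ratio of CPM between cells with at least 3 members and cells with none, after thinning. Of 10223 genes with at least 50 UMIs in each library, the 15 highest that are no member included Pxdc1, Serpinb1a, 1700012B07Rik, Apol7b, Cysltr1, Actn2, Pde5a, Nr1d1, Adam12, Ltb4r1, Aqp3, Cited4, 5830411N06Rik and Klrb1b. Pxdc1 had log2 ratios of 6.21, 7.35 and 5.92 in C57BL/6, BM only and BM + Spl. Serpinb1a, a serine protease inhibitor gene, had 7.96, 6.88 and 5.08, and Nr1d1, which encodes the nuclear receptor REV-ERBα, 3.97, 4.15 and 4.08. Cysltr1 and Ltb4r1, receptor genes for leukotrienes, had 4.97, 4.95 and 4.28 and 5.15, 3.93 and 3.79.

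Of the 25 partner genes, 22 had enough UMIs for this ranking; 13 were higher by at least 1.5-fold in each of the 3 libraries and 1 (Il21) was lower, where 4.18% and 6.04% of all ranked genes were. Zbtb16, which encodes the iNKT factor PLZF, was not among them, with log2 ratios of -0.23, 0.43 and -1.68. The partner list was chosen with earlier results known and holds the NKT17 markers that named the NKT17-like cluster. The count of 13 is therefore a description and no test of the program. Il22 had 263 UMIs in the 284 program cells of BM only and 36 in the 106 of BM + Spl, but 1 in the 100 of C57BL/6. The program cells of BM only and BM + Spl also differed in class: 90.1% of them were NKT17-like in BM only and 60.4% in BM + Spl, where 20.8% lay in the cluster led by Sostdc1, Penk and Nrn1.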

How the data were processed

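The authors deposited raw UMI counts per gene and cell for 3 droplet libraries, counted against mm10 with Cell Ranger (3.0.2 per the file header for C57BL/6, 7.0.0 for BM only and BM + Spl, a version that counts intronic reads by default); the labels name Seurat 4.0.2 for the authors' own analysis. Genes were matched by identifier across the matrices. Cells with more than 200 and fewer than 6000 genes and less than 10% mitochondrial UMIs were kept. Levels are summed UMIs per 1000000 UMIs of the cells (CPM). Intervals are exact Poisson intervals for levels, Clopper-Pearson intervals for shares and conditional binomial intervals for ratios, at 95%, and cover counting error only. With 1 library per group no test was possible. A fold was read for genes with at least 50 UMIs in the pair compared, and 1.5-fold was the limit. For shares, cells were thinned to 2700 UMIs; the share with a given member is the share expected over thinning, and counts of members per cell come from 1 seeded draw.

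Cells were clustered with Seurat 5.3.0 (R 4.3.3) on 2000 variable genes without the members and T cell receptor segments, 20 principal components integrated over libraries and resolution 0.6. A cluster was named "X-like" from its highest-scoring marker list if at least 3 markers had 10 or more UMIs and it held at least 50 cells. A marker of that list also had to be among the cluster's 20 leading genes, or the first 10 for a shallow cluster. The unnamed cluster led by Sostdc1, Penk and Nrn1 scored highest for the regulatory T cell list but had none of its markers among the 20. Scrublet (scanpy 1.11.5) marked 0, 2 and 1 cells, so its threshold did not work and doublets were kept; leaving out the 6% of cells with the highest scores was an alternative. Scripts were tested on simulated data. The genes named as most like the members are the 15 with the highest value of the measure given in the report. The members, gene lists and tests were chosen with earlier results of these data known. Promoter windows came from RefSeq and gene positions from GENCODE vM21. Python 3.11.15 with numpy 2.4.6, pandas 2.3.3, scipy 1.17.1 and matplotlib 3.10.9 was used. Some genes of the lists are not reported here.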

Additional observations from a re-analysis of the deposited data

Results flagged for a closer look

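In 5 of 50 pairs of effects compared, the 2 effects had intervals on opposite sides of 0. Pairs with opposite signs but an interval that included 0 were not flagged. Some flagged pairs are built from the same levels, so they are not independent. Each flagged pair rests on 1 library per group, and the differences were not tested. For BM + Spl over BM only, the log2 ratio of Tmem176a was -0.19 in NKT17-like cells and 0.24 outside them. Within NKT17-like cells, Tmem176a had a log2 ratio of -0.75 in cells with an iNKT Trbv segment and 0.28 in cells with another segment, and Tmem176b had -0.45 and 0.31. For cells with another segment over cells with an iNKT segment among NKT17-like cells, Tmem176a had a log2 ratio of -0.28 in BM only and 0.75 in BM + Spl. The summed members had -0.41 and 0.33 in the same comparison. Among NKT17-like cells of BM + Spl, only Tmem176a and Tmem176b were higher by 1.5-fold in cells with another segment, 2 of 7 members tested. Of all genes tested there, 5.18% were higher. Il23r, Il1r1 and Blk were lower by that fold among NKT17-like cells of both libraries. The sign of the sum therefore does not stand for each member.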

How the results depend on the processing

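No paired analysis was possible because each group held 1 library. Of 101 alternative values, 75 stayed within the counting interval (for counts, within 1.5 times) and 26 moved further. No ratio changed direction, while the shares, levels and counts among these values have no direction to change. The share of cells with 3 or more members in C57BL/6, BM only and BM + Spl became 4.39%, 9.40% and 6.84% for at least 2 members, 1.18%, 3.31% and 0.702% for at least 4, 1.02%, 3.51% and 1.24% when thinned to 1500 UMIs, and 6.20%, 6.65% and 3.13% without thinning. The summed log2 ratio of BM + Spl over BM only was -1.05 in all cells, -1.46 in iNKT-segment and -0.85 in other-segment cells without the cluster led by Sostdc1, Penk and Nrn1, an alternative chosen after seeing the data, and -0.58 in all and -0.99 in iNKT-segment cells with each cell thinned. The log2 ratio of other over iNKT segments was 1.09 in BM only and 1.71 in BM + Spl without that cluster, 0.83 and 1.51 with a call at 50%, and 1.01 in BM only at 95%. Split by Trav it was 4.74 (3.39 to 6.62) and 1.99 (1.07 to 3.12), which rests on 55 and 21 cells called as Trav11 against 2185 and 2530 others. That call missed most of the Trav11 cells the paper counted by receptor sequencing, so these 2 values are no check on the Trbv split. With the members among the variable genes, the summed level in NKT17-like cells of C57BL/6 was 1018 CPM and the share of member UMIs in those of BM + Spl 36.0%. The cause of these shifts was not tested. Leaving out barcodes shared by the transplant libraries, also chosen after seeing the data, moved none of the results past its interval. Low counts limit Il17f (66 and 68 UMIs) and Sdc1 (201 and 63 UMIs) in BM only and BM + Spl, and no alternative can stand in for replicate libraries.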
